A study of Homo sapiens with 24 samples.

Results

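The comparison described here asks what calcitriol changed in 2 human B-lymphoblastoid lines that were receiving estrogen as well. It set the 6 arrays labelled with both agents against the 6 arrays labelled with estrogen alone, which is 12 of the 24 arrays of the study. Both sets of arrays were taken at 36 h, so length of culture was matched, and estrogen was common to both sides. Each line, GM10855 and GM10861, was compared with itself on the deposited log2 signals, and the 2 changes were averaged. GM10855 contributed 3 arrays with calcitriol and estrogen and 3 with estrogen, and GM10861 contributed the same numbers. The other 12 arrays held untreated cells at 0 h and cells given calcitriol alone for 36 h, again 3 per line and condition. Both lines come from the HapMap collection and are B cells immortalised with Epstein-Barr virus, so they proliferate in culture and are no resting B cells. The sources used here give no dose, no vehicle and no name for the estrogen compound. They also do not say whether arrays of one group stand for separate cultures, so each p-value measures the spread among these arrays and that spread may be technical.

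Calcitriol, the hormonal form of vitamin D, activates the vitamin D receptor (VDR), a transcription factor that binds DNA as a heterodimer with a retinoid X receptor such as RXRA. The complex typically binds a direct repeat of hexamers with a short gap and recruits coactivators, and the gene of the calcitriol-degrading enzyme CYP24A1 is its classical target. In B cells and myeloid cells the hormone is known for inducing the antimicrobial peptide gene CAMP and for acting on B cell maturation. Estrogen acts through a separate pair of nuclear receptors, ESR1 and ESR2.

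The promoters of CAMP, STS and CD38, among the genes with the largest rises, and of HGF, the gene with the largest fall, are shown because they are the sequence next to the genes that the results turn on. They come from RefSeq, build GRCh38.p14, and run 5′ to 3′ on the gene's own strand from 250 bases before to 50 after the start of the gene. Capitals mark every hexamer AGGTCA or AGGTGA or AGTTCA or AGTTGA or GGGTCA or GGGTGA or GGTTCA or GGTTGA, a set of 8 half-site spellings searched on both strands.
CAMP at chr3:48223245-48223544, + strand: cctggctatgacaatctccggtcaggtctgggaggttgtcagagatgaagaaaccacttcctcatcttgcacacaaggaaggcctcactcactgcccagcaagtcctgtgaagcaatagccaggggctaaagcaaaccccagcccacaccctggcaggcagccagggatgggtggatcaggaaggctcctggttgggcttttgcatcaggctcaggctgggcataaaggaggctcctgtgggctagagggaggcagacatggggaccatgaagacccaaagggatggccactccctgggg
STS at chrX:7147040-7147339, + strand: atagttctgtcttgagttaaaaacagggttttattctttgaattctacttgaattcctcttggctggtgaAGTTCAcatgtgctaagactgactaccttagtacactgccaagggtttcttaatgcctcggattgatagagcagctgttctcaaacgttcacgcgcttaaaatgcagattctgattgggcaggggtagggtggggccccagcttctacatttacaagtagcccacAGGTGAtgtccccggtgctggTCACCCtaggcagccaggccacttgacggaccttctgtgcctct
CD38 at chr4:15778078-15778377, + strand: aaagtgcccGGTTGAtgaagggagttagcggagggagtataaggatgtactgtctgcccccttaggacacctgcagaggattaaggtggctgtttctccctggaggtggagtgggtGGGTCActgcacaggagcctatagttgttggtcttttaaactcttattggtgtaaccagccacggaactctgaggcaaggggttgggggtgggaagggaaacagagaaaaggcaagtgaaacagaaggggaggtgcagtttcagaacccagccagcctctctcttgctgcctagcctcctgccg
HGF at chr7:81769998-81770297, − strand: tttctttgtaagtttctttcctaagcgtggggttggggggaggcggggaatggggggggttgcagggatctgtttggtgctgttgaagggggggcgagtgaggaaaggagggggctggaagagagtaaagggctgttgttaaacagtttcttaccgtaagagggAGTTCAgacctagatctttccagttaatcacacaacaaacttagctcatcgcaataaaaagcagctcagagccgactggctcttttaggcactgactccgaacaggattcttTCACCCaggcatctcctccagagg
The CAMP window held 0 of these hexamers, the STS window 3, the CD38 window 2 and the HGF window 2. CYP24A1, the classical target, had no promoter sequence among those used, so its window was not searched. Of the 14219 tested genes with a promoter in the table, 58.1% held at least 1 hexamer. The share was 63 of 101 genes that rose (62.4%) and 10 of 13 that fell (76.9%). A pair of hexamers on the same strand with a gap of 3 bases, the spacing of the classical vitamin D response element, was present in 29 promoters (0.204%) and in 1 of the 101 genes that rose, USP7. A match of letters in this window is a description and is no evidence of binding, and the absence of a match says only that the letters are not in the window.

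Array quality gave no library that stood apart. Across probe sets, the 3 arrays of a group correlated at 0.985 to 0.993, arrays of both agents and of estrogen in the same line at 0.986 to 0.993, and arrays of different lines at 0.978 to 0.984. The cell type label was checked against its defining markers. The B cell genes MS4A1, CD79A, CD79B, PAX5 and CD22 had mean log2 signals of 7.18 to 10.86, whereas CD3D, CD3E, CD3G, CD4 and CD8A of T cells lay at 3.89 to 5.23 and CD14, LYZ and CSF1R of monocytes at 2.99 to 5.24. The deposited signals have no true zero and no detection limit, so no marker can be given as absent. None of the 16 T cell, 14 NK cell, 15 monocyte and macrophage, 7 erythroid and 13 fibroblast markers measured passed the test (0 of each list).

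Adding calcitriol to estrogen raised many more transcripts than it lowered. Of 21214 probe sets with a gene symbol, limma called 160 (0.754%) at a Benjamini-Hochberg adjusted p under 0.05, with 144 higher (0.679%) and 16 lower (0.0754%). These shares are the background for every count of called list members below. The lists were chosen with earlier results of these data known, so those counts are descriptions. The 144 included 136 probe sets with a single symbol, standing for 130 genes, and the 16 included 14 genes. Without adjustment, 841 probe sets were higher and 843 lower at p under 0.05, so the 2 directions were even at that looser threshold. The changes were mostly small. A log2 change of 1 or more, a doubling, was reached by 3 genes (CAMP, CYP24A1 and STS), 33 of the 144 rises reached 0.5 and 111 reached 0.3. Among the falls, 3 of 16 reached −0.5, in HGF, CCR2 and ANXA1. The median change was 0.37 over the called rises and −0.29 over the called falls, against −0.01 over all probe sets tested. For changes averaged over both lines, the standard error had a median of 0.0742, and the 95% interval reached 0.154 to each side at the median.

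The replicate arrays separated for most called rises. In both lines, every array with calcitriol and estrogen lay above every array with estrogen alone for 107 of the 144 rises, against 176 of all 21214 probe sets (0.830%). For the falls, every array with both agents lay below every estrogen array in both lines for 13 of 16, against 84 of all probe sets (0.396%). These shares were part of what the test used and are given as a description. When each of the 12 arrays was left out in turn, 79 of the 144 rises and 4 of the 16 falls stayed called every time. The number of rises was 92 without the first GM10855 array of both agents and 95 without the first GM10861 estrogen array.

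CAMP, which encodes the antimicrobial peptide cathelicidin, rose the most. Its log2 signals in GM10855 were 6.15, 6.02 and 5.65 with estrogen and 8.39, 8.60 and 8.17 with calcitriol added. In GM10861 they were 6.10, 6.13 and 5.88 with estrogen and 7.87, 8.01 and 7.88 with both agents. The arrays with calcitriol were all high and the estrogen arrays all low, so the groups did not overlap in either line. The rise was 2.16 ± 0.102 (SE) on the log2 scale, or 4.48-fold, with an adjusted p of 1.97e-12 in limma.

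CYP24A1, the hydroxylase that inactivates calcitriol, followed with a rise of 2.08 ± 0.115, or 4.21-fold (adjusted p = 4.26e-11). GM10855 gave 3.52, 3.80 and 3.47 with estrogen and 5.35, 5.02 and 4.93 with both agents. GM10861 gave 3.48, 3.20 and 3.61 with estrogen and 5.68, 6.30 and 6.26 with both. The estrogen arrays of the lines were alike, and the arrays with calcitriol were higher in GM10861, where the rise was 2.65 against 1.503 in GM10855. The difference of 1.14 between the lines did not pass over all probe sets (adjusted p = 0.140). RMA compresses fold changes at signals this low.

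VDR itself rose by 0.31 ± 0.0623 (adjusted p = 0.0134). In GM10855 it measured 5.03, 5.08 and 4.95 with estrogen and 5.404, 5.63 and 5.43 with both agents, without overlap. In GM10861 the values were 4.98, 4.96 and 5.05 against 5.04, 5.08 and 5.31, and the lowest array with calcitriol lay just under the highest with estrogen. The call was lost in 1 of the 12 fits that left out an array (adjusted p = 0.054) and when only the 12 compared arrays entered the fit. RXRA, the usual partner of VDR, changed by −0.09 ± 0.0672 (adjusted p = 0.831), CYP27B1, which makes calcitriol, by −0.07 ± 0.087 (0.914), and CYP2R1, a hydroxylase that acts before it, by −0.10 ± 0.0622 (0.752). In all, 2 of 14 measured members of the list of vitamin D receptor, partners and metabolism rose, CYP24A1 and VDR, beside 0.679% of all probe sets, and 12 did not pass.

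Of 38 measured VDR target genes of the literature, 8 rose and none fell (0), beside 0.679% of all probe sets called higher. The list was chosen with earlier results of these data known, so this count is a description and no independent support. These were CAMP, CYP24A1, STS, CD38, CLMN, G0S2, SERPINB1 and VDR. The list's median change was 0.03, near the −0.01 of all genes, so most members stayed close to the bulk. Among those that did not pass were GADD45A, a growth arrest gene at 0.24 ± 0.0677 (adjusted p = 0.141), CD14, a lipopolysaccharide receptor of myeloid cells at −0.20 ± 0.0868 (0.539), and ORM1, an acute phase protein gene whose −0.48 ± 0.150 (0.263) was the lowest value of the list.

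**Figure D1:**
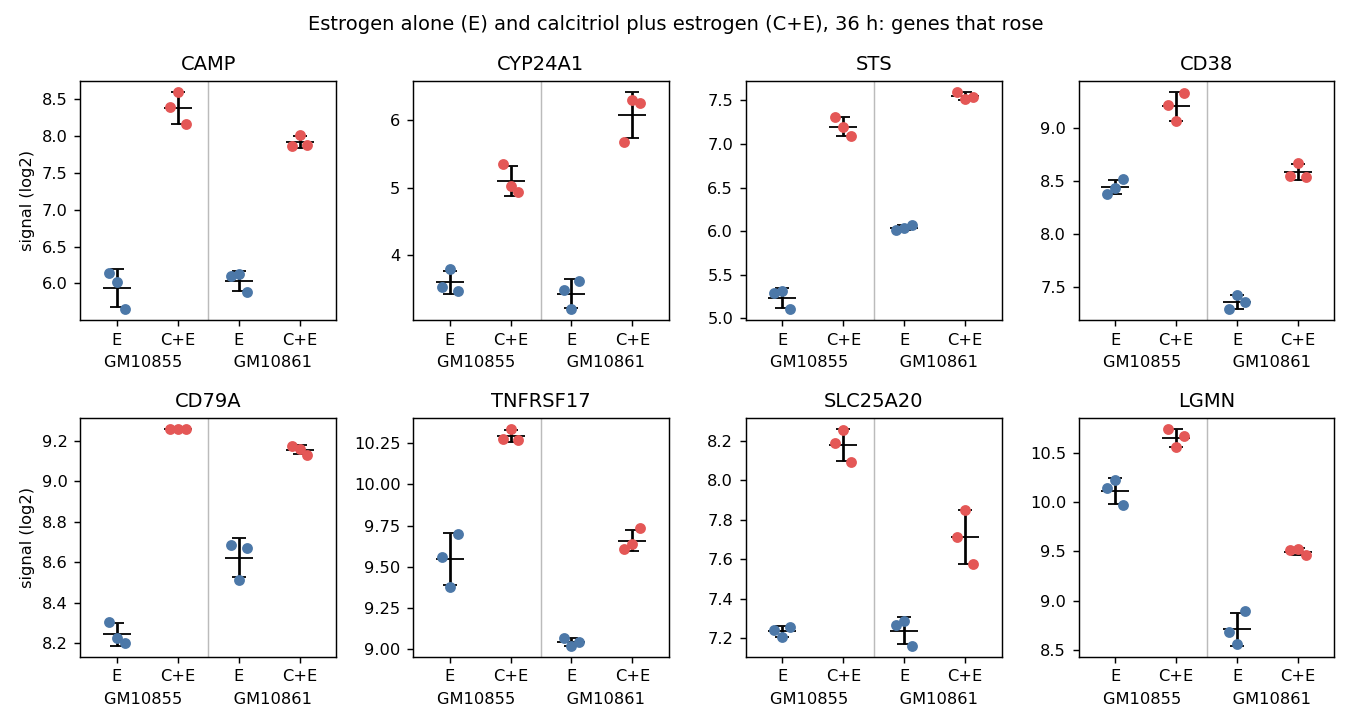
Log2 signal of 8 genes that rose, by array, in GM10855 (left of the grey line) and GM10861 (right), with estrogen alone (E, blue) or calcitriol plus estrogen (C+E, red). Points are arrays, 3 per group, bars are the mean ± SD, and the vertical axes differ between genes and do not start at 0. In every panel the C+E arrays lay above the E arrays of the same line.

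STS, steroid sulfatase, releases steroids such as estrone from their sulfates. It measured 5.29, 5.32 and 5.10 with estrogen and 7.31, 7.19 and 7.09 with both agents in GM10855. GM10861 gave 6.01, 6.04 and 6.07 with estrogen and 7.60, 7.51 and 7.54 with both. The groups were separated by more than a log2 unit in each line, and the rise of 1.73 ± 0.0607, or 3.33-fold, had the smallest adjusted p of the comparison (5.41e-15). SULF2, an extracellular sulfatase that trims heparan sulfate, was the other sulfatase that rose, by 0.70 ± 0.0838 (adjusted p = 2.06e-05). Its estrogen values of 6.20, 6.04 and 6.28 in GM10855 went to 6.90, 6.83 and 6.80, and those of 5.28, 5.70 and 5.30 in GM10861 went to 6.25, 6.27 and 5.94. The remaining 15 of the 17 measured sulfatases did not pass, among them ARSB at 0.10 ± 0.0599 and IDS at 0.16 ± 0.0549, and the list's median change was 0.00. Over all probe sets, 0.679% were called higher.

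CD38, an ectoenzyme that consumes NAD and marks activated B cells and plasma cells, rose by 0.99 ± 0.0621 (adjusted p = 3.31e-10). GM10855 arrays read 8.38, 8.44 and 8.51 with estrogen and 9.22, 9.06 and 9.33 with both agents. GM10861 arrays read 7.29, 7.43 and 7.36 against 8.55, 8.67 and 8.53. GM10861 began about a log2 unit lower and the lines stood closer together with calcitriol, although the difference between the line changes did not pass (adjusted p = 0.348). DENND6B, a member of a family of exchange factors for Rab GTPases, rose by almost the same amount in each line, 0.94 in GM10855 and 0.90 in GM10861, and by 0.92 ± 0.0517 on average. Its arrays read 6.23, 6.41 and 6.43 against 7.30, 7.20 and 7.38 in GM10855. In GM10861 they read 6.24, 6.40 and 6.38 against 7.26, 7.20 and 7.26, again without overlap.

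ZNF589, a zinc finger gene directly beside CAMP on chromosome 3, rose by 0.90 ± 0.0852 (adjusted p = 4.37e-07). The GM10855 arrays gave 6.89, 6.44 and 6.93 with estrogen and 8.09, 7.98 and 7.92 with both agents, and the GM10861 arrays gave 6.82, 7.14 and 6.92 against 7.56, 7.48 and 7.53. The closest neighbours of the genes with the largest rises otherwise did not pass. Of 20 measured neighbours of the 12 single-symbol genes with the largest rises, the 2 called were CAMP and ZNF589 themselves. PLXNB2 beside DENND6B changed by 0.23 (adjusted p = 0.137), PUDP beside STS by 0.23 (0.413), and CDC25A on the other side of CAMP by 0.08 (0.841). For calcitriol alone against untreated cells at 0 h, limma called PLXNB2 at 0.28 (adjusted p = 0.034) and PUDP at 0.37 (0.0373). CDC25A was not called there, at 0.03 (0.993). Over all called genes there were 4 pairs of direct neighbours, CAMP with ZNF589, CD200 with BTLA, LAMB3 with G0S2, and TXNDC11 with ZC3H7A.

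B cell genes were among the rises. CD79A, which carries signals from the B cell receptor, was higher by 0.78 ± 0.0625 (adjusted p = 3.56e-08). Its GM10855 values of 8.31, 8.22 and 8.20 went to 9.26, 9.26 and 9.26, and its GM10861 values of 8.68, 8.51 and 8.67 went to 9.17, 9.16 and 9.13. The line means differed with estrogen and came to nearly the same signal with calcitriol. The difference between the line changes, −0.48 (GM10861 minus GM10855), did not pass in limma (adjusted p = 0.348). CR2, the complement receptor through which Epstein-Barr virus enters B cells, rose by 0.43 ± 0.0615 (adjusted p = 0.00027). PAX5, the transcription factor of B cell identity, rose by 0.32 ± 0.0543 (0.00239), and IRF8, a factor of germinal centre and myeloid cells, by 0.26 ± 0.0592 (0.0343). IRF8 lost its call in 8 of the 12 fits that left out an array, whereas the other 3 kept theirs in all 12. The 29 remaining members of the 33 measured genes of B cell identity and the B cell receptor did not pass, and the list's median was −0.01, like that of all genes. Rises in this list stand beside 0.679% of all probe sets called higher.

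Of 18 measured plasma cell genes, 3 rose and none fell (0), beside 0.679% of all probe sets called higher, with a list median of 0.04. TNFRSF17, the receptor BCMA that sustains plasma cells, measured 9.56, 9.38 and 9.70 with estrogen and 10.28, 10.34 and 10.27 with both agents in GM10855. In GM10861 it measured 9.07, 9.02 and 9.04 against 9.61, 9.64 and 9.73, and the rise was 0.68 ± 0.0507 (adjusted p = 9.06e-09). TENT5C, a poly(A) polymerase active on immunoglobulin and other secretory transcripts, rose by 0.67 ± 0.0545 (4.05e-08), from 9.06, 9.03 and 9.13 to 9.78, 9.62 and 9.76 in GM10855 and from 7.61, 7.66 and 7.78 to 8.46, 8.27 and 8.40 in GM10861. CD38 was the third. SDC1, which encodes the plasma cell surface protein CD138, changed by 0.19 ± 0.0637 and did not pass (adjusted p = 0.306). PAX5, which is switched off in plasma cells, and these plasma cell genes thus rose in the same arrays.

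Among 30 measured TNF ligands and receptors, TNFRSF17 and TNFSF4 rose (2 of 30, beside 0.679% of all probe sets) and none fell (0). TNFSF4, the ligand OX40L that B cells present to T cells, rose by 0.61 ± 0.0649 (adjusted p = 2.96e-06). Its signals of 8.16, 8.01 and 8.06 in GM10855 went to 8.76, 8.76 and 8.69, and those of 7.35, 7.41 and 7.22 in GM10861 went to 7.78, 7.95 and 7.96. LTA, lymphotoxin alpha, changed by 0.23 ± 0.0710 (0.263) and TNFSF10, the ligand TRAIL, by −0.23 ± 0.0720 (0.248), and neither passed. The TNF list's median was 0.02.

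Single coinhibitory genes of lymphocytes changed. Of 23 measured coinhibitory and costimulatory genes, CD200, BTLA and CD274 rose, LAX1 fell and 19 did not pass, with a list median of −0.05. Shares over all probe sets were 0.679% higher and 0.0754% lower. CD200, a ligand that restrains myeloid cells, rose by 0.36 ± 0.0605 (adjusted p = 0.00207), and its chromosomal neighbour BTLA, an inhibitory receptor of B and T cells, rose by 0.35 ± 0.0521 (0.000388). CD274, the ligand PD-L1, rose by 0.32 ± 0.0559 (0.00255), from 8.42, 8.27 and 8.37 to 8.87, 8.67 and 8.69 in GM10855 and from 7.71, 7.85 and 7.83 to 8.02, 8.06 and 8.08 in GM10861. All 3 kept their calls in the 12 fits that left out an array, and their groups did not overlap in either line. LAX1, an adaptor that dampens antigen receptor signals, fell by 0.27 on the log2 scale (SE 0.0634, adjusted p = 0.0485), a call that none of those fits kept (0 of 12).

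Of 20 measured chemokine receptors, 2 rose and 1 fell, beside 0.679% of all probe sets called higher and 0.0754% called lower. CCR10, a receptor of antibody-secreting cells, rose by 0.31 ± 0.0635 (adjusted p = 0.0137), and CXCR4, the receptor for CXCL12, by 0.35 ± 0.0805 (0.0397). CXCR4 lost its call in 10 of 12 fits that left out an array, and CCR10 in 0. The fall was that of CCR2, described with the falls, and the list's median was 0.06. CXCR3 changed by 0.24 ± 0.0718 without passing (0.218). CCL22, a chemokine for CCR4-bearing T cells, rose by 0.49 ± 0.0950 (0.00896). It was the 1 member of 33 measured NF-kB genes that passed, and the list's median was 0.02.

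Of 44 measured cytokines and cytokine receptors, 1 rose and 1 fell, beside 0.679% of all probe sets called higher and 0.0754% called lower. IL2RA, the alpha chain of the interleukin-2 receptor, rose by 0.29 ± 0.0604 (adjusted p = 0.0177), with the call lost in 3 of 12 fits that left out an array. HGF fell, and the remaining 42 did not pass. IL6 changed by 0.27 ± 0.0905 (0.310) and IL10RA by −0.26 ± 0.0699 (0.130). Outside the lists, several surface proteins of lymphocytes rose, and these were chosen after their values were seen: CD84, an adhesion receptor of the SLAM family, by 0.46, IL17RB, a receptor for IL-25, by 0.43 and CD69, an early activation antigen, by 0.38.

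Of 24 measured genes of the carnitine shuttle and fatty acid oxidation, SLC25A20 alone rose. SLC25A20, the carrier that brings acylcarnitines into mitochondria, measured 7.24, 7.20 and 7.26 with estrogen and 8.19, 8.26 and 8.09 with both agents in GM10855. In GM10861 it measured 7.27, 7.29 and 7.16 against 7.71, 7.85 and 7.58, and the rise was 0.71 ± 0.0592 (adjusted p = 5.42e-08). The other 23 did not pass, 18 of the 24 lay below 0, and the list's median was −0.06. ACADM, a dehydrogenase of medium-chain fatty acids, changed by 0.13 ± 0.0519 (0.489) and ECHS1, the short-chain hydratase, by −0.14 ± 0.0642 (0.587).

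G0S2, an inhibitor of the triglyceride lipase ATGL, rose by 0.45 ± 0.0697 (adjusted p = 0.000631). Its GM10855 arrays read 5.98, 5.89 and 5.89 with estrogen and 6.16, 6.05 and 6.31 with both agents, and its GM10861 arrays read 5.998, 5.70 and 5.99 against 6.42, 6.54 and 6.69. LAMB3, the laminin chain gene next to it, rose by 0.31 ± 0.0692 (0.0323), a call that 10 of 12 fits without an array did not keep. G0S2 was the 1 of 14 measured lipid droplet and lipolysis genes that passed. PLIN2, which coats lipid droplets, changed by −0.13 ± 0.0704 (0.712).

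ACSL1, which activates long-chain fatty acids, rose by 0.62 ± 0.0637 (adjusted p = 1.66e-06), and ABCD2, a peroxisomal transporter of very long fatty acids, by 0.55 ± 0.0815 (0.000377). FAR2 (a fatty acyl-CoA reductase, 0.38) and OSBPL3 (an oxysterol-binding protein relative, 0.26) were also called higher. With SLC25A20 and the lipase inhibitor G0S2, both given above, these lipid genes numbered 6, a grouping made after the values were seen. All 6 were called in every fit that left out an array, beside 79 of the 144 rises. Of the 6, 5 changed more in GM10855, beside 112 of the 144 rises.

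Several single transporter and enzyme genes rose, placed together here after their values were seen. SLC5A3, which imports myo-inositol, rose by 0.52 ± 0.0632 (adjusted p = 2.22e-05). ADHFE1, a mitochondrial hydroxyacid-oxoacid transhydrogenase, rose by 0.60 ± 0.0809 (0.000124), from 5.03, 4.89 and 5.13 to 6.02, 5.56 and 6.03 in GM10855 and from 4.61, 4.49 and 4.25 to 4.77, 4.70 and 4.91 in GM10861. ENTPD7, a nucleotide-splitting enzyme of internal membranes, rose by 0.54 ± 0.0596 (5.33e-06). PHGDH, the first enzyme of serine synthesis, rose by 0.27 ± 0.0556 (0.016), alone among 17 measured genes of serine and one-carbon metabolism. GCLC, the rate-limiting subunit of glutathione synthesis, rose by 0.35 ± 0.0835 (0.0472), the 1 of 21 measured NRF2 and glutathione genes to pass. PHGDH lost its call in 4 and GCLC in 9 of the 12 fits that left out an array.

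DDIT4, an inhibitor of mTORC1 that many stresses induce, rose by 0.37 ± 0.0772 (adjusted p = 0.0167). Its GM10855 arrays moved from 7.67, 7.88 and 7.84 to 8.32, 8.60 and 8.25, and its GM10861 arrays overlapped, at 7.77, 7.69 and 8.07 against 7.98, 8.06 and 7.94. RRAGD, a Rag GTPase that recruits mTORC1 to lysosomes, rose by 0.25 ± 0.0594 (0.0452). These were the 2 of 24 measured mTORC1 regulators that passed, beside 0.679% of all probe sets called higher, with a list median of 0.01. DDIT4 was also the 1 of 21 measured genes of ATF4 and the integrated stress response. DDIT4 lost its call in 5 and RRAGD in 10 of 12 fits that left out an array.

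Among lysosomal hydrolases and proton pump subunits, 2 of 29 measured genes rose, LGMN and CTSZ, beside 0.679% of all probe sets. LGMN, the asparagine-specific protease legumain that processes antigens, measured 10.14, 10.23 and 9.97 with estrogen and 10.74, 10.55 and 10.67 with both agents in GM10855. In GM10861 it measured 8.68, 8.55 and 8.89 against 9.51, 9.52 and 9.46, and the rise was 0.66 ± 0.0596 (adjusted p = 1.84e-07). CTSZ, the carboxypeptidase cathepsin Z, rose by 0.43 ± 0.0705 (0.0013). The other 27 did not pass, among them CTSB at 0.22 ± 0.0594 (0.136) and GLB1 at 0.24 ± 0.0650 (0.130), and the list's median was 0.02. LGMN was the 1 of 18 measured genes of MHC class II presentation that rose, and that list's median was 0.05. NAPSA, an aspartic protease of the same compartments, rose by 0.39, a gene picked after its value was seen.

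Other single genes among the largest rises act in signalling, RNA processing or gene regulation. HIPK2, a nuclear kinase, rose by 0.68 ± 0.0655 (adjusted p = 6.43e-07) and MBNL2, a splicing regulator, by 0.62 ± 0.0542 (1.25e-07). ITM2C, a transmembrane protein that is abundant in plasma cells, rose by 0.66 ± 0.0510 (1.94e-08), with 9.62, 9.68 and 9.61 against 10.28, 10.33 and 10.35 in GM10855 and 9.35, 9.29 and 9.39 against 9.97, 10.01 and 9.94 in GM10861. ARHGEF28, a guanine nucleotide exchange factor, rose by 0.54 ± 0.0541 (1.27e-06). MYRF, a membrane-bound transcription factor, rose by 0.55 ± 0.0816 (0.000393) and SLFN11, a restriction factor that blocks stalled replication, by 0.52 ± 0.0652 (3.48e-05). TRIM31, a ubiquitin ligase gene represented by 3 similar probe sets, rose by 0.64, 0.57 and 0.54 (adjusted p = 0.00581, 0.00643 and 0.0232). The third lost its call in 5 of 12 fits that left out an array, and none passed in either line alone. SERINC2, a relative of serine incorporators, rose by 0.59 ± 0.0682 on one probe set, and its other probe set changed by 0.01 and did not pass. TAS2R50, a taste receptor gene with close relatives, rose by 0.51 ± 0.118 (0.0381), a call that 8 of 12 fits without an array did not keep.

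Further groups were put together after the values were seen, and they include genes given above. The 16 transcription and chromatin factors, among them KAT2B, KDM1B, CHD7, MED13, TAF4B and HIF1A, rose by 0.22 to 0.90. Their median was 0.44 in GM10855 and 0.19 in GM10861, and 15 of 16 changed more in GM10855. For all 144 rises the medians were 0.47 and 0.27, and 112 changed more in GM10855. The 7 kinases, phosphatases and their subunits, including MAPKAPK2, which acts below p38, and PTP4A1, a prenylated protein phosphatase, rose by 0.23 to 0.68.

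Estrogen was present on both sides of the comparison. Among 22 measured estrogen receptors and estrogen-responsive genes, CYP19A1 alone rose, none fell (0), and the median was 0.01. CYP19A1 encodes aromatase, which makes estrogens from androgens. It rose by 0.41 ± 0.0829 (adjusted p = 0.0137) at low signals, from 3.41, 3.71 and 3.34 to 4.40, 4.11 and 3.87 in GM10855, while the GM10861 arrays overlapped at 3.22, 3.56 and 3.27 against 3.55, 3.47 and 3.55. The call was lost in 3 of 12 fits that left out an array. ESR1 changed by −0.04 ± 0.0862 (0.954) and ESR2 by 0.04 ± 0.0715 (0.945). NRIP1, a corepressor that estrogen induces in breast cells, changed by 0.20 ± 0.0949 (0.617).

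The falls were few. HGF, hepatocyte growth factor, fell by 0.59 on the log2 scale (SE 0.0975, 1.501-fold lower, adjusted p = 0.00165). Its arrays read 6.17, 5.89 and 5.93 with estrogen and 5.53, 5.06 and 5.43 with both agents in GM10855. In GM10861 they read 4.36, 4.42 and 4.59 against 3.95, 3.93 and 3.93, and no array overlapped in either line. CCR2, the receptor for the monocyte chemokine CCL2, fell by 0.55 (SE 0.0899, adjusted p = 0.00126), from 4.89, 4.57 and 4.94 to 3.86, 4.34 and 4.02 in GM10855 and from 4.32, 4.64 and 4.28 to 4.15, 3.86 and 4.10 in GM10861. A further probe set of CCR2 changed by −0.40 and did not pass (0.3002). The called CCR2 probe set lay at percentile 19.3 of mean signal, and HGF in GM10861 was also low.

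ANXA1, a calcium-dependent phospholipid-binding protein with anti-inflammatory actions, fell by 0.51 (SE 0.0794, adjusted p = 0.000671). The GM10855 values of 9.01, 8.79 and 8.86 went to 8.49, 8.49 and 8.26, and the GM10861 values of 7.42, 7.24 and 7.18 went to 6.75, 6.98 and 6.47. It was the 1 of 11 measured annexins that passed, with ANXA2 at −0.10 ± 0.0626 and ANXA6 at −0.13 ± 0.0553. HAPLN3, which links hyaluronan to proteoglycans, fell by 0.34 (SE 0.0676, adjusted p = 0.0133), from 5.69, 5.82 and 5.74 to 5.34, 5.21 and 5.37 in GM10855 and from 5.20, 5.10 and 5.17 to 4.90, 4.998 and 4.87 in GM10861. These 4 were the falls that kept their call in every fit that left out an array.

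The remaining named falls lay between −0.22 and −0.29 and each lost its call in 8 or more of the 12 fits that left out an array. They were CDC25C, the phosphatase that starts mitosis, at −0.29, CD109, a membrane protein that dampens TGF-beta signals, at −0.29, and CTNNAL1, a relative of alpha-catenin, at −0.29. LAX1 has been given, and HDDC3, a small hydrolase, was at −0.26. GSTM2, a glutathione transferase with close relatives that can share probes, was at −0.26. HMCES, which shields abasic sites in DNA, was at −0.25, CASP6, a caspase, at −0.25 and ZNF18, a zinc finger gene, at −0.22. Of 35 measured adhesion, integrin and matrix genes, HAPLN3 and CD109 fell, SULF2 rose and 32 did not pass, with a median of 0.01. Shares over all probe sets were 0.0754% lower and 0.679% higher.

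**Figure D2:**
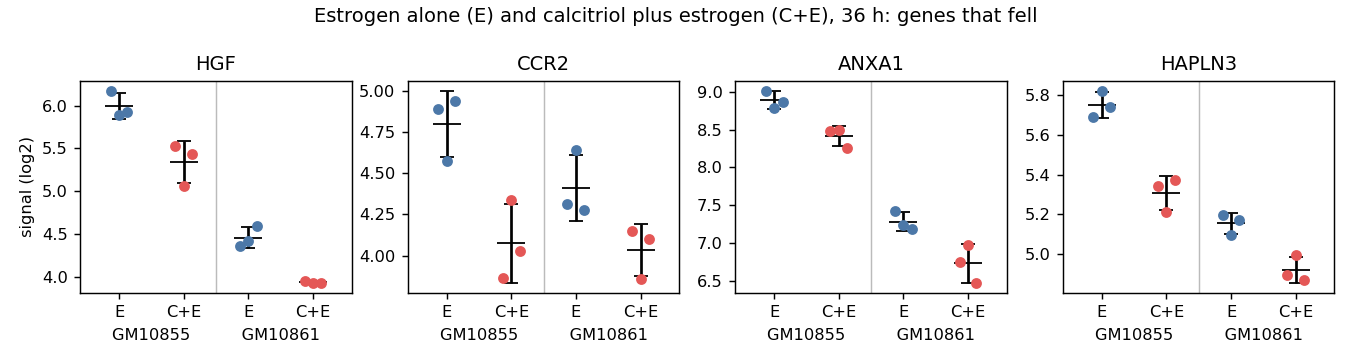
Log2 signal of the 4 genes whose fall stayed called when any array was left out, by array, in GM10855 (left of the grey line) and GM10861 (right), with estrogen alone (E, blue) or calcitriol plus estrogen (C+E, red). Points are arrays, 3 per group, bars are the mean ± SD, and the vertical axes differ and do not start at 0. Every C+E array lay below every E array of its line.

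Growth and housekeeping lists held almost no called genes. None of 31 measured G1/S and DNA replication genes passed (0), 26 of them lay below 0, and the median was −0.06. CDC25C was the 1 of 30 G2/M and mitosis genes to pass, with a list median of −0.03. None of 32 oxidative phosphorylation genes (0, median −0.07, 29 below 0), 32 cytosolic ribosomal proteins (0, median −0.05), 39 interferon-stimulated genes (0, median −0.03) or 21 p53 targets and CDK inhibitors (0, median 0.00) passed. Over all genes the median was −0.01 and 45.0% lay above 0. Among 24 apoptosis regulators MCL1, a survival protein of the BCL2 family, rose by 0.21 ± 0.0510 (adjusted p = 0.0498), a call that 11 of 12 fits without an array did not keep. Over the 33 lists with 780 measured entries, 23 held at least 1 called gene. This counts lists, so the 0.754% of single probe sets called is no background for it. The lists were chosen with earlier results of these data known, so the number is a description and no measure of enrichment.

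**Figure D3:**
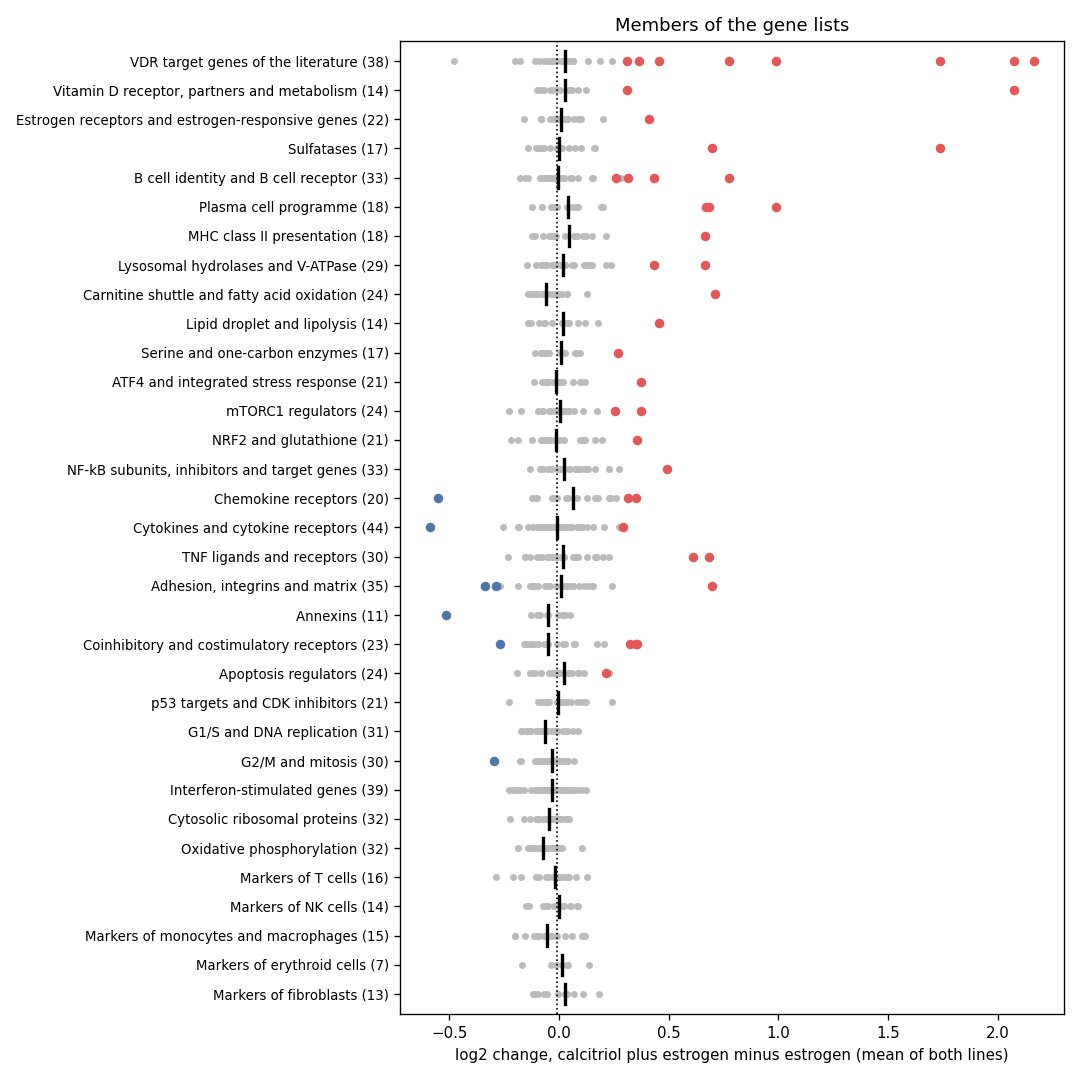
Log2 change of every measured gene of the 33 gene lists, calcitriol plus estrogen minus estrogen, averaged over both lines, with the number measured beside each list name. Red points rose and blue points fell at an adjusted p under 0.05, grey points did not pass, black bars are list medians, and the dotted line is the median of all genes (−0.01). The called genes lie far from their lists' medians, which stay between −0.07 and 0.06.

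Within single lines, GM10855 gave the larger number of calls. In GM10855 alone, 111 probe sets were higher (0.523%) and 23 lower (0.108%), and in GM10861 alone 26 were higher (0.123%) and 1 was lower (0.00471%). Both lines had the same median standard error, 0.105, because the fit shared 1 estimate of the spread among groups of 3 arrays. The median SD between arrays was 0.132 in GM10855 and 0.109 in GM10861. With only the 12 compared arrays in the fit, 29 probe sets were called in GM10855 and 12 in GM10861. Of the 144 rises called on average, 89 were called in GM10855, 26 in GM10861 and 20 in both lines. The median change of these rises was 0.47 in GM10855 and 0.27 in GM10861, and 112 of 144 were larger in GM10855, with no test made of that count. ANXA1 was the fall called in GM10861, at −0.55, and it also passed in GM10855, at −0.48.

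The 6 rises that passed in GM10861 and not in GM10855 were MYRF, G0S2, SLC44A2, NAPSA, LAMB3 and SNRK. G0S2 rose by 0.66 in GM10861 (adjusted p = 0.00163) and changed by 0.25 in GM10855 (0.351). Passing in one line and not in the other does not show a difference between lines, and the test of the difference did not pass for any of these 6 genes. The signs agreed in both lines for 142 of 144 rises and 16 of 16 falls. The exceptions were APOL3, an apolipoprotein L gene, and TSPAN2, a tetraspanin, which were singled out for this reason. APOL3 changed by 0.66 in GM10855 and −0.02 in GM10861, and TSPAN2 by 0.93 and −0.05.

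CLMN was the 1 probe set of 21214 (0.00471%) whose change differed between the lines, and 1430 had an unadjusted p under 0.05 in this test by limma. CLMN encodes calmin, a membrane protein with an actin-binding region. In GM10855 its signals were 4.90, 4.96 and 5.01 with estrogen and 6.24, 6.10 and 6.34 with both agents. In GM10861 they were 6.11, 6.26 and 6.30 against 6.39, 6.65 and 6.45. The estrogen arrays of GM10861 thus lay about where calcitriol brought GM10855. The rise was 1.27 in GM10855 and 0.27 in GM10861, a difference (GM10861 minus GM10855) of −0.998 with an adjusted p of 0.00239. Without the first GM10861 array of both agents 4 probe sets passed this test, CYP24A1 (difference 1.34, adjusted p = 0.0312) and PKP2 (1.11, 0.0491) among them.

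**Figure D4:**
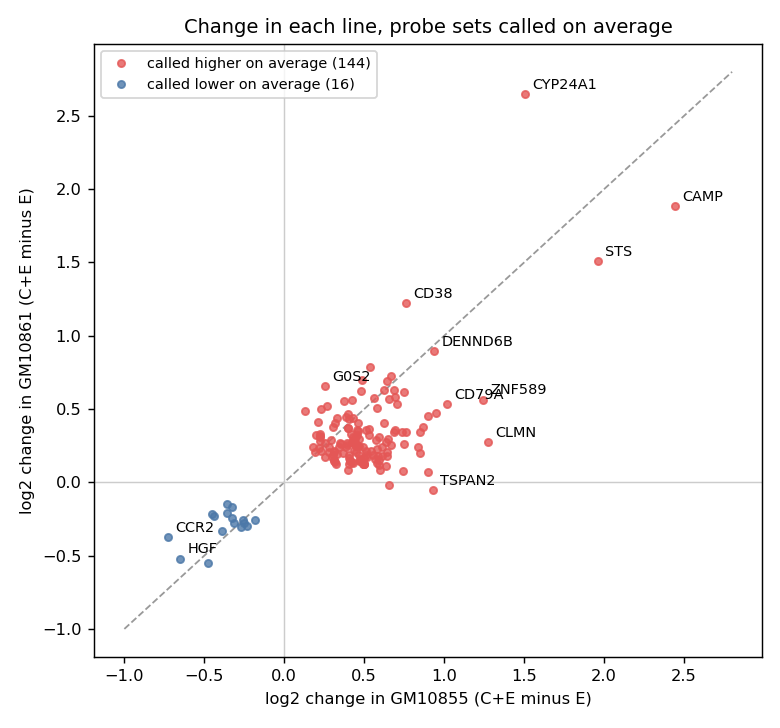
Log2 change in GM10855 (horizontal) and GM10861 (vertical), calcitriol plus estrogen minus estrogen, for the 144 probe sets called higher (red) and 16 called lower (blue) on average over both lines. The dashed line marks equal change. Most red points lie below it, CLMN lies far below it, CYP24A1 lies above it, and TSPAN2 lies at −0.05 in GM10861.

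The same hormone was also added without estrogen in this study, in arrays that entered the comparison above only through the estimate of spread. Calcitriol against untreated cells called 144 probe sets (0.679%), but there the untreated cells were taken at 0 h, so calcitriol and 36 h of culture cannot be told apart. Of the 144 rises with estrogen, 95 were also called as rises against untreated cells and 49 were not. The median change of the 144 was 0.37 with estrogen and 0.36 against untreated cells. Because the 144 were chosen by their values with estrogen, the comparison of sizes is a description. CAMP changed by 2.16 with estrogen and 2.46 against untreated cells, CYP24A1 by 2.08 and 2.06, STS by 1.73 and 1.89, and CD38 by 0.99 and 1.002. CTSZ changed by 0.43 against 0.71 and DDIT4 by 0.37 against 0.63.

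The 49 rises that were not called against untreated cells held ADHFE1 (0.60 with estrogen and 0.31 against untreated cells), TAS2R50 (0.51 and 0.04), NOTCH2 (a receptor of marginal zone B cells whose near-identical copies can share probes, 0.41 and 0.13), CD274 (0.32 and 0.20), HIF1A (0.37 and 0.22) and IL2RA (0.29 and 0.08). SLC10A5, ZNF26, ZNF836 and CHORDC1, chosen after their values were seen, had opposite signs, with changes against untreated cells of −0.09, −0.15, −0.02 and −0.07. Of the 16 falls, HGF, CCR2 and ANXA1 were also called against untreated cells, at −0.53, −0.44 and −0.38, and 13 were not. The median of the 16 was −0.29 with estrogen and −0.11 against untreated cells. HAPLN3 stood at 5.75 ± 0.0667 (SD, n = 3) with estrogen, 5.31 ± 0.0849 with both agents, 5.68 untreated and 5.66 with calcitriol alone in GM10855. Its change against untreated cells was 0.01, and against estrogen it was −0.34.

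The change with estrogen was also set against the change from untreated cells in a test of their difference. Since untreated cells were taken at 0 h, 36 h of culture enters the second change and not the first, and a dependence on estrogen and the time in culture cannot be told apart in this difference. No probe set passed in limma (0 of 21214, 0.00%), 935 had an unadjusted p under 0.05, and the smallest adjusted p was 0.671. Of the 160 called probe sets, 29 had an unadjusted p under 0.05 in this test. The 160 were chosen by their change with estrogen, which enters this difference, so the choice favours small p-values among them. That count is a description. The median standard error of this difference was 0.105. HAPLN3 differed by −0.35 ± 0.0956, SLC25A20 by −0.19 ± 0.0838 and TAS2R50 by 0.48, without passing. The 62 calls that were absent against untreated cells are therefore not shown to depend on estrogen, and a p that misses the threshold does not show that the changes were equal.

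**Figure D5:**
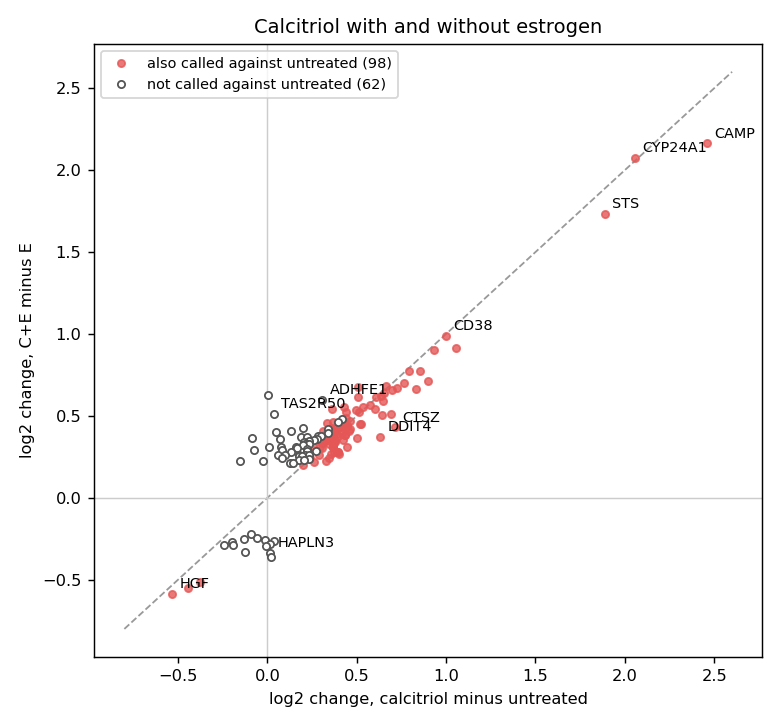
Log2 change on adding calcitriol to estrogen (vertical) and for calcitriol against untreated cells at 0 h (horizontal), each averaged over both lines, for the 160 probe sets called on adding calcitriol to estrogen. Red points (98) were also called against untreated cells, open points (62) were not, and the dashed line marks equal change. CAMP, CYP24A1, STS and CD38 lie near the line, and HAPLN3 lies at 0.01 against untreated cells.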

How the data were processed

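Gene expression was measured in total RNA on Affymetrix whole-transcript arrays. The values deposited by the authors are on a log2 scale, 1 per probe set and array. The submitters' processing notes name RMA and, as software, Affymetrix Expression Console 1.0.1. This method subtracts background and equalises the distributions of arrays, so it removes a change shared by most genes and compresses changes of dim probe sets. No detection p-values were used, and the number of arrays limits the precision. No label marks a batch. Replicate numbers follow the order of the sample list and pair nothing.

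A probe table named 21214 of 33297 probe sets with at least 1 symbol (19460 with 1, 1754 with several, 12083 with none), and 19429 were found by Entrez ID in a RefSeq gene table of GRCh38.p14. Those 21214 were tested in R 4.3.3 with limma 3.58.1, with 1 mean for each of 8 groups over all 24 arrays (16 residual and 6.73 prior degrees of freedom) and two-sided Benjamini-Hochberg adjusted p-values. The fit was checked on simulated data. For the 33 lists, the probe set with the highest mean stood for a gene (18417 genes).

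The comparison, its members and the lists were chosen with earlier results of these data known. Named were the 30 largest rises and 15 largest falls that passed with the same sign in both lines, line differences and interactions that passed, at most 4 genes of a list, by smallest p, called direct neighbours of named genes, and always CAMP, CYP24A1, CYP27B1, VDR, RXRA and both estrogen receptors. Not named were pseudogenes, predicted loci, small RNAs, genes with common deletions, HLA-DRB genes, Y-linked genes and antigen receptor segments. Alternatives were a filter at a mean log2 signal of 5 (14526 probe sets), all probe sets, median centring, cyclic loess, trend and robust eBayes, array weights, only the 12 arrays compared, a minimum change of 0.5, and leaving out each array.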

Additional observations from a re-analysis of the deposited data

Results flagged for a closer look

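The change of CLMN differed between the lines, at −0.998 (GM10861 minus GM10855) by limma's test of the difference. The adjusted p ranged from 0.000768 with the filter on low signals to 0.0495 with only the 12 arrays compared, and the difference kept its sign and its call in each of the alternatives and in each fit that left out an array.

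Probe sets that carry no symbol were outside the comparison. In a fit of all 33297 probe sets, 12 of them were called higher and 0 lower.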

How the results depend on the processing

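No named gene and no count turned direction under the alternatives run. The number of rises, 144, was 94 with only the 12 compared arrays, 33 with a minimum change of 0.5, and 92 to 128 when an array was left out. The number of falls, 16, was 7 with all probe sets, 6 after median centring, 5 with only the compared arrays, 3 with the minimum change, and 5 to 13 when an array was left out (5 without the first GM10855 estrogen array and without GM10861 array 1 or 3 of both agents). In GM10855 the 134 calls became 229 with trend and robust eBayes, 29 with only the compared arrays, 66 with the minimum change and 80 to 146 without an array (80 without the first GM10855 array of both agents and 82 without the first of estrogen). In GM10861 the 27 calls became 47 with array weights, 12 with only the compared arrays and 14 to 19 without an array (14 without estrogen array 3). The line difference gave 2 calls after median centring and after cyclic loess and 1 to 4 without an array. The interaction, which cannot be fitted on the compared arrays alone, gave 0 in each alternative that was run for it. Of 63 named called probe sets, 44 kept their call with only the compared arrays, 49 with all probe sets and 52 after median centring. With only the compared arrays VDR, CYP19A1, DDIT4, IL2RA, PHGDH and IRF8 were among those lost. The causes were not tested. No paired analysis was possible because the labels carry no replicate numbers.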
